A study of Mus musculus with 6 samples.

Results

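The envelope genes of the epidermal differentiation complex were followed in 2 mouse keratinocyte lines. They are 47 of the 24982 genes listed for every library. The members were all genes whose symbol starts with Sprr or Lce and a digit, together with *Ivl*, *Lor*, *Hrnr*, *Flg2*, *Rptn*, *Tchh*, *Tchhl1*, *Crct1*, *Crnn* and *Kprp*, and S100 genes were not included. The KSFM-Ca2+ line came from skin of newborn C57BL/6 mice and was derived and grown in the low calcium medium KSFM-Ca2+. The DKSFM line descended from the KSFM-Ca2+ cells after they had been adapted to the defined medium DKSFM, in which it was grown. Neither line was treated. Each line was sequenced as 3 libraries, and the comparison asks how the envelope genes differ between the descendant cells and the cells they came from. Line and medium differed together, so their parts in any difference cannot be told apart. Nothing in the labels tells whether a replicate was a culture of its own, so the p-values measure the spread between these samples, which may be technical.

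When keratinocytes leave the basal layer of the epidermis and mature, they build a cornified envelope under the plasma membrane, a shell of proteins cross-linked by transglutaminases. Involucrin, loricrin, the small proline-rich proteins and the late cornified envelope proteins are its building blocks. Their genes lie side by side in the epidermal differentiation complex, together with genes of S100-fused proteins such as repetin and trichohyalin, which bind keratin filaments or join the envelope. Calcium is a known trigger of this program in cultured keratinocytes.

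The signal was the mean read coverage per base of each gene, written to 1 decimal, so levels are per length and can be set side by side between genes. Coverage summed over all genes was 1601676, 1238411 and 1057750 in KSFM-Ca2+ replicates 1, 2 and 3, and 1174348, 1239438 and 1170675 in DKSFM replicates 1, 2 and 3. Values were scaled between libraries and are called normalized coverage below, while listed coverage is the value before scaling. A step of 0.1 in listed coverage stood for about 0.272 reads of *Sprr4*, the member with the shortest transcript, and about 16.4 reads of *Flg2*, the member with the longest. Low values of short members therefore rest on few reads. A gene was tested when its normalized coverage reached 0.5 in at least 3 libraries, and called when the adjusted p from limma was under 0.01 and the change was at least 2-fold.

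Both lines had the defining markers of keratinocytes. Normalized coverage of *Krt14*, the keratin of basal keratinocytes, was 11992 ± 242 (SD, n = 3) in KSFM-Ca2+ and 29678 ± 1520 in DKSFM. *Trp63*, the transcription factor that sets epidermal fate, was at 405 ± 12.4 and 442 ± 13.3. Against these levels the envelope genes were weakly covered. Summed over the 47 members, listed coverage made up 0.0199% of each KSFM-Ca2+ library and 0.0478%, 0.0553% and 0.0519% of the DKSFM libraries. The number of members listed above 0 was 20, 22 and 21 in the KSFM-Ca2+ libraries and 35, 33 and 30 in the DKSFM libraries. The keratins *Krt1* and *Krt10*, which the paper names as markers of the spinous layer, were low in both lines. *Krt1* was listed at 0 throughout KSFM-Ca2+ and at 0.5, 0.8 and 0.2 in DKSFM. Normalized coverage of *Krt10* was 3.35, 3.47 and 3.66 in KSFM-Ca2+ and 4.55, 6.09 and 4.35 in DKSFM. Each DKSFM library was above each KSFM-Ca2+ library, but the log2 fold change of *Krt10*, 0.49, was under a 2-fold change. Since these are bulk libraries, fewer cells of a type and less RNA per cell cannot be told apart.

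All 47 members lie on chromosome 3, within 1.39 Mb at chr3:92080271-93471980 of GRCm38.p6 (mm10). They comprise 16 *Sprr* genes, 21 *Lce* genes, 6 genes of S100-fused proteins and 4 others, *Ivl*, *Lor*, *Crct1* and *Kprp*. In the RefSeq annotation 2 of them, *Sprr2g* and *Sprr2j-ps*, are transcribed pseudogenes. Promoter sequences from RefSeq were found for 42 members, each 300 bases long with 250 bases before the start site. Those of 7 members are shown because they stand for the directions of change in the data. *Sprr2a3*, *Sprr2b*, *Sprr1a*, *Lor* and *Rptn* were higher in DKSFM, *Sprr2h* was lower, and *Ivl* was lower by less than 2-fold. The windows are read 5′ to 3′ on the strand of the gene. They lie at chr3:92285054-92285353 (plus strand) for *Sprr2a3*, chr3:92316455-92316754 (plus) for *Sprr2b*, chr3:92385435-92385734 (plus) for *Sprr2h*, chr3:92485832-92486131 (minus) for *Sprr1a*, chr3:92573686-92573985 (minus) for *Ivl*, chr3:92083093-92083392 (minus) for *Lor* and chr3:93393449-93393748 (plus) for *Rptn*. Capitals mark the letters TGANTCA, bound by AP-1 factors, the TATA box letters TATAAA, and the octamer ATGCAAAT, bound by POU factors, on either strand.
Sprr2a3: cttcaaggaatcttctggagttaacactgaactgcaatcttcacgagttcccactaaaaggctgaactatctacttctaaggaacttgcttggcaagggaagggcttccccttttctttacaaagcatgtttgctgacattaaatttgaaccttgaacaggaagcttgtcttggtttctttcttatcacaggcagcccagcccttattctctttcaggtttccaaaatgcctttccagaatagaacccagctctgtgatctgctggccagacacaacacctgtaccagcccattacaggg
Sprr2b: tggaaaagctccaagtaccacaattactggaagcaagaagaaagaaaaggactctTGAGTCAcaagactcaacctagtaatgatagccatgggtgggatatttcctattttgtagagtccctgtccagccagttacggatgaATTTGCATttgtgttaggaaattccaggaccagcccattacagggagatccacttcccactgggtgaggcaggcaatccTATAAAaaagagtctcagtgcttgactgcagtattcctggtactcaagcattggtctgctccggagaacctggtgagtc
Sprr2h: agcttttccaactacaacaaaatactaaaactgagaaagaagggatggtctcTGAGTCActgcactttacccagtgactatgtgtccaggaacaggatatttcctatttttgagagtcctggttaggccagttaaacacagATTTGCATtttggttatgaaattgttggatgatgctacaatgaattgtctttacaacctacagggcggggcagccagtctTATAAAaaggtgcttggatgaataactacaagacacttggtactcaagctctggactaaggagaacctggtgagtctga
Sprr1a: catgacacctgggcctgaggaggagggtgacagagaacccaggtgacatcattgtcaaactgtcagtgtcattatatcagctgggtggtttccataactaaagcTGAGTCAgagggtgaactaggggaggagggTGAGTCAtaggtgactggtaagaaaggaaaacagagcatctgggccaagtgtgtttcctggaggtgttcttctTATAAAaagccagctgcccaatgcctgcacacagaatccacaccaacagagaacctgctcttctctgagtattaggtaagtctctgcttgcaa
Ivl: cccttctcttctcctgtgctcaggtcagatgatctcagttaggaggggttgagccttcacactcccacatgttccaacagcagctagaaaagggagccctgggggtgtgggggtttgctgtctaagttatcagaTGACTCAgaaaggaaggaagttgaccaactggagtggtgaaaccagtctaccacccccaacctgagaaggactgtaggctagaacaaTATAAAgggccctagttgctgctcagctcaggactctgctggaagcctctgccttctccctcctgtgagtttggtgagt
Lor: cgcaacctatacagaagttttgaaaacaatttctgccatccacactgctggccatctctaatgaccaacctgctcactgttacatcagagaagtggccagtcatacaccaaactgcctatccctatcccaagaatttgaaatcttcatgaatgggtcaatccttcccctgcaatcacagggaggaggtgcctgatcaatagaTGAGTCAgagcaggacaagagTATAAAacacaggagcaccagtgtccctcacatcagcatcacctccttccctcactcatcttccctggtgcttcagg
Rptn: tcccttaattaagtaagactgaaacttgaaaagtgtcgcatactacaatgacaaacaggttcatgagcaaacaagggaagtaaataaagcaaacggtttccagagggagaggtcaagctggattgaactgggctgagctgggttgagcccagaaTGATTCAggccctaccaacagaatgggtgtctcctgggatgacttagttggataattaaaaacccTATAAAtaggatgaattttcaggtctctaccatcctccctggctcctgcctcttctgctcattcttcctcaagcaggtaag

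The AP-1 letters were in 15 of the 42 member promoters (35.7%), against 7.81% of the 32851 mouse promoters of that length. The TATA letters were in 19 (45.2%, against 13.6%) and the octamer in 7 (16.7%, against 1.74%). All 7 octamer matches were in *Sprr2* promoters. The windows of *Sprr2b*, *Sprr2d*, *Sprr2e*, *Sprr2f*, *Sprr2h*, *Sprr2i* and *Sprr2k* held AP-1, octamer and TATA letters in this order. Any pair of these 7 windows was 61% to 89.1% identical, so their matches are not independent of each other in the shares above. In *Sprr2b* they began 195, 108 and 29 bases before the start site and in *Sprr2h* 198, 109 and 29 bases before it. *Sprr2b* was called higher and *Sprr2h* lower, and their windows were 63.7% identical in a global alignment. The windows of *Sprr2a1*, *Sprr2a2* and *Sprr2a3* held none of these 3 motifs. The last letters of these windows resemble letters that lie shortly before the TATA letters in *Sprr2b*. The windows may therefore end short of that position, and bases beyond them were not searched. Letters for ETS factors (CAGGAA) were in 24 member promoters (57.1%, against 30.6%), for KLF factors (CACACCC) in 2 (4.76%, against 7.95%) and for GRHL factors (AACCGGTT) in 0 (against 0.146%). No matches of different motifs overlapped in a member promoter. A match describes letters in a window and is not a measured binding site.

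**Figure D1:**
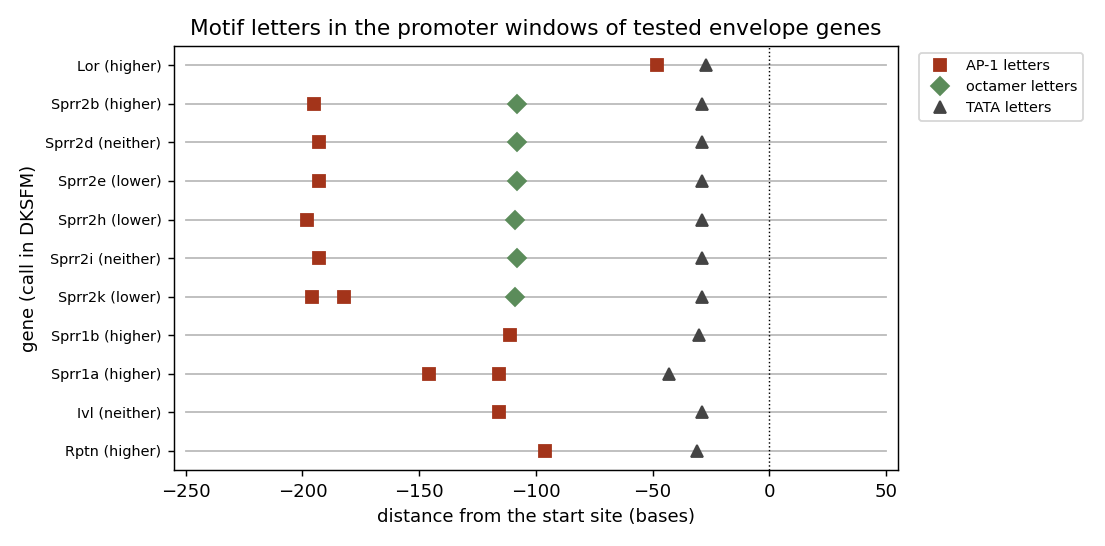
Positions of the AP-1, octamer and TATA letters in the promoter windows of the 11 tested members that hold any of them, as the distance in bases of the first matched letter from the start site, with the call of each gene in DKSFM. The 6 tested *Sprr2* genes in the plot hold the 3 motifs in the same order, with a second AP-1 match in *Sprr2k*. Of these genes *Sprr2b* was called higher, a call lost with a pseudocount of 1, and *Sprr2e*, *Sprr2h* and *Sprr2k* lower. The call of *Sprr2e* was lost, at a similar fold, without any 1 KSFM-Ca2+ library and without the intensity trend.

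Of the 47 members 23 were tested, and 11 of them were higher and 4 lower in DKSFM. Over all 12409 genes tested, 13.1% were higher and 10.6% lower. The 3 DKSFM libraries lay above the 3 KSFM-Ca2+ libraries for 13 tested members and below them for 6, where the shares over all tested genes were 41.0% and 42.3%. The median log2 fold change was 1.83 over the tested members and -0.01 over all tested genes. For the members it was 1.20 with a pseudocount of 0.5, 0.85 with a pseudocount of 1 and 0.73 over the 40 members fitted without the filter. Of the tested members 4 (*Sprr4*, *Kprp*, *Crct1* and *Rptn*) had reached 0.5 in DKSFM libraries alone. Only 1, *Sprr2e*, had reached it in KSFM-Ca2+ libraries alone, and all of these had to differ. Another 12 reached 0.5 in every library. Of these 12, 6 were higher and 3 lower, with a median of 0.69 against -0.03 over the 11112 genes that reached it in every library, of which 9.22% were higher and 8.68% lower when fitted on their own.

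**Figure D2:**
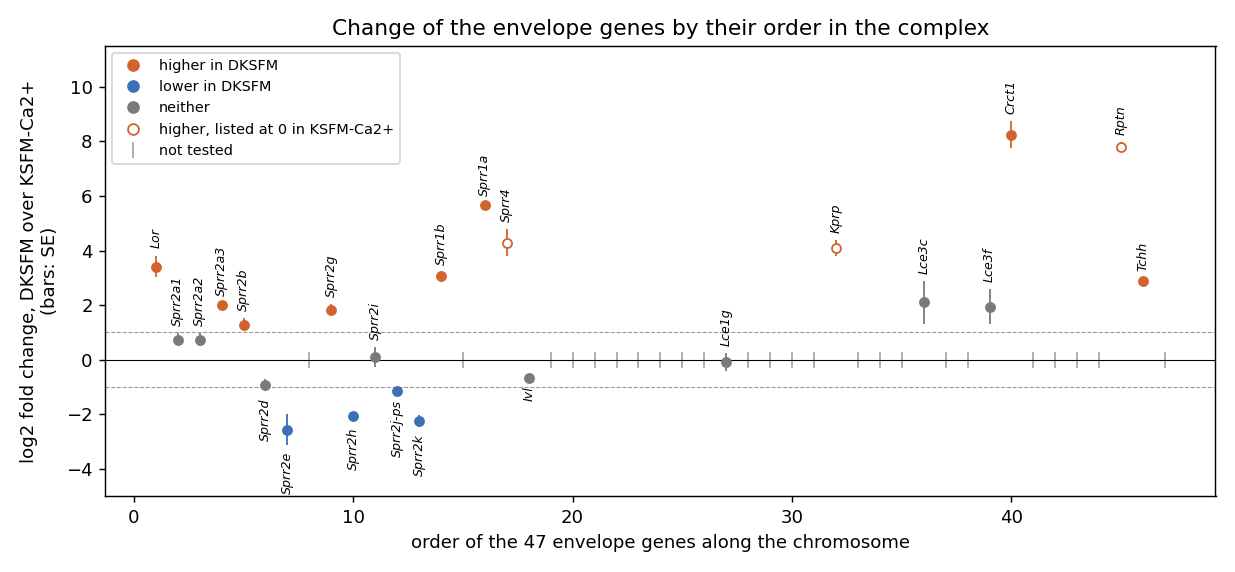
Log2 fold change (DKSFM over KSFM-Ca2+) with its SE for the tested members, by their order among the 47 members along the chromosome. Dashed lines mark a 2-fold change, ticks on the line at 0 mark members not tested, and open circles mark members listed at 0 in KSFM-Ca2+. Members called lower lie among the *Sprr2* genes, between members called higher.

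The *Sprr2* genes, which encode short proline-rich proteins that bridge other envelope proteins, moved in both directions. Of 12 members of the family 11 were tested, 3 of which were higher and 4 lower in DKSFM. Their median log2 fold change was 0.09. *Sprr2h* had the highest coverage of all members in KSFM-Ca2+, listed at 98.6, 79.5 and 74.1, and was listed at 14.4, 23.0 and 18.9 in DKSFM. All 3 KSFM-Ca2+ libraries were high and all 3 DKSFM libraries low. Normalized coverage fell from 80.5 ± 6.33 to 19.4 ± 3.90 (SD, n = 3), a log2 fold change of -2.06 ± 0.14 (SE, adjusted p = 2.0e-06).

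The pseudogene *Sprr2j-ps* had the next highest coverage in KSFM-Ca2+. It was listed at 81.5, 61.9 and 55.6 in KSFM-Ca2+ and at 25.2, 30.0 and 26.6 in DKSFM, with no overlap. Its log2 fold change was -1.16 ± 0.05 (adjusted p = 2.2e-07). *Sprr2k* was listed at 5.5, 5.3 and 4.8 in KSFM-Ca2+ and at 0.8, 0.8 and 1.3 in DKSFM. Here too each DKSFM library lay under each KSFM-Ca2+ library, and the log2 fold change was -2.24 ± 0.21 (adjusted p = 2.0e-05), or -1.59 with a pseudocount of 1. *Sprr2e*, the member that passed the filter through KSFM-Ca2+ alone, was listed at 1.8, 1.7 and 1.3 there and at 0, 0.4 and 0.3 in DKSFM. The groups did not overlap, and the log2 fold change was -2.56 ± 0.56 (adjusted p = 0.0029), the largest adjusted p among the 4 lower members, or -1.04 with a pseudocount of 1. The call was lost when any 1 of the KSFM-Ca2+ libraries was left out, with adjusted p-values from 0.0103 to 0.0134, and without the intensity trend (adjusted p = 0.0107). In these fits the log2 fold change stayed between -2.60 and -2.49.

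*Sprr2a3* moved the other way. It was listed at 63.7, 46.5 and 33.3 in KSFM-Ca2+ and at 164.0, 174.1 and 178.6 in DKSFM. Every DKSFM library was above every KSFM-Ca2+ library, normalized coverage rose from 44.7 ± 4.79 to 179 ± 9.08, and the change was 4.01-fold (SE 0.08 on the log2 scale, adjusted p = 9.2e-08). Of the windows of 85 bases, the read length, in its transcripts 42.9% also occur in *Sprr2a1* or *Sprr2a2*. The authors quantified with Salmon, but how shared reads entered the deposited coverage is not stated. The level of *Sprr2a3* is therefore uncertain to that extent. *Sprr2a1* and *Sprr2a2* share 93.6% and 93.9% of their windows with other members. They carried the same listed values, 0.9, 0.7 and 0.4 in KSFM-Ca2+ and 0.8, 1.4 and 1.0 in DKSFM, and cannot be told apart.

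*Sprr2g*, the other pseudogene, was listed at 9.5, 5.9 and 3.3 in KSFM-Ca2+ and at 16.5, 22.4 and 18.7 in DKSFM. It rose with no overlap between the lines, by a log2 fold change of 1.83 ± 0.21 (adjusted p = 5.4e-05). None of its windows of 85 bases occurs in a transcript of another gene, and the same holds for *Sprr2h*, *Sprr2j-ps* and *Sprr2k*. Only exact matches were counted, so windows that differ in a few bases were not examined. *Sprr2g* and *Sprr2h* are next to each other with 10.5 kb between them, and they moved in opposite directions. The listed coverage of *Sprr2h* was 10.4, 13.5 and 22.5 times that of *Sprr2g* in the KSFM-Ca2+ libraries and 0.873, 1.03 and 1.01 times in the DKSFM libraries. *Sprr2b* also rose, from 0.889 ± 0.179 to 2.34 ± 0.577, a log2 fold change of 1.29 ± 0.23 (adjusted p = 0.00082), but with a pseudocount of 1 it was 0.81 and the call was lost. *Sprr2d*, at 2.33 ± 0.512 and 1.18 ± 0.292, differed by less than 2-fold (log2 fold change -0.92), and was called lower without KSFM-Ca2+ replicate 3 (-1.10) or DKSFM replicate 1 (-1.09). The lines did not overlap for *Sprr2d* and did for *Sprr2i*. *Sprr2f* was listed at 0.3 in DKSFM replicate 1 and at 0 in the other 5 libraries.

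Summed over the 12 genes, normalized coverage of the *Sprr2* family was 206 ± 2.10 in KSFM-Ca2+ and 255 ± 12.8 in DKSFM. The sum held changes in both directions. The 4 members called lower summed to 150 ± 9.11 in KSFM-Ca2+ and 48.9 ± 5.73 in DKSFM, and the 3 called higher to 51.2 ± 6.63 and 201 ± 9.71. Listed coverage of *Sprr2a3* was 0.646, 0.585 and 0.449 times that of *Sprr2h* in the KSFM-Ca2+ libraries and 11.4, 7.57 and 9.45 times in the DKSFM libraries. The 12 genes span 218 kb, and the 4 called lower lie within 81.8 kb of it.

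*Sprr1b* and *Sprr1a*, which lie beyond the *Sprr2* genes with *Sprr3* between them, encode small proline-rich proteins that are cross-linked early in envelope assembly. *Sprr1a* was listed at 4.4, 3.1 and 2.8 in KSFM-Ca2+ and at 149.3, 185.7 and 162.0 in DKSFM. The lines did not come near each other. Normalized coverage rose from 3.25 ± 0.149 to 172 ± 13.7, a 51.3-fold change (log2 fold change 5.68 ± 0.07, adjusted p = 3.3e-10). *Sprr1b* was listed at 15.2, 9.1 and 9.7 in KSFM-Ca2+ and at 74.8, 99.9 and 88.1 in DKSFM. It rose 8.44-fold (log2 fold change 3.08 ± 0.11, adjusted p = 8.1e-08), again in all 3 libraries. The order of the pair turned over. Listed coverage of *Sprr1b* was 3.45, 2.94 and 3.46 times that of *Sprr1a* in KSFM-Ca2+ and 0.501, 0.538 and 0.544 times in DKSFM. *Sprr1b* lies 2.88 kb beyond *Sprr2k*, the last *Sprr2* gene, which was lower.

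*Sprr4* was listed at 0 in KSFM-Ca2+ and at 2.9, 2.7 and 0.7 in DKSFM, and was called higher (adjusted p = 6.2e-05). DKSFM replicate 3 was well under the other 2 libraries. *Sprr3* was not tested, being listed at 0 in KSFM-Ca2+ and at 0.3, 0.1 and 0.7 in DKSFM.

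**Figure D3:**
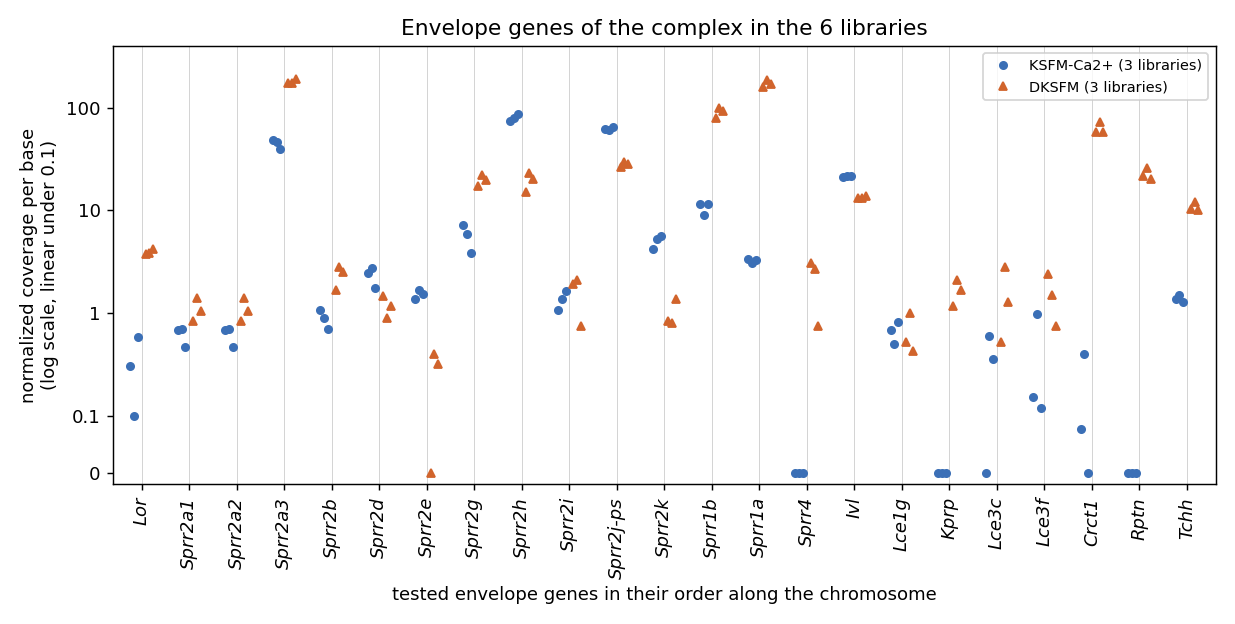
Normalized coverage per base of the 23 tested members in each of the 3 KSFM-Ca2+ libraries (circles) and 3 DKSFM libraries (triangles), on a log axis that is linear under 0.1, in the order of the genes along the chromosome. *Sprr2d*, *Sprr2e*, *Sprr2h*, *Sprr2j-ps*, *Sprr2k* and *Ivl* are higher in KSFM-Ca2+, while *Sprr1a*, *Crct1* and *Rptn* show the widest gaps in favour of DKSFM.

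Involucrin and loricrin are the classical markers of envelope formation, involucrin as an early scaffold and loricrin as the main late component. Their genes did not move together. *Ivl* was listed at 27.7, 21.6 and 18.2 in KSFM-Ca2+ and at 12.4, 13.4 and 13.1 in DKSFM. Normalized coverage was 21.3 ± 0.200 in KSFM-Ca2+ and 13.5 ± 0.391 in DKSFM, so each DKSFM library was under each KSFM-Ca2+ library. The log2 fold change was -0.66 ± 0.05 (adjusted p = 3.7e-06), a 1.58-fold difference that stayed under the 2-fold threshold. *Lor* was listed at 0.4, 0.1 and 0.5 in KSFM-Ca2+ and at 3.6, 3.9 and 4.0 in DKSFM. It rose in all 3 libraries, with a log2 fold change of 3.42 ± 0.40 (adjusted p = 6.8e-05). Normalized coverage of *Lor* in KSFM-Ca2+ was 0.305, 0.0992 and 0.590, so it passed the filter mostly through DKSFM. It was not tested when 0.5 was required in every library. Because its KSFM-Ca2+ values are close to the step of 0.1, the size of the change moved between 1.92 and 3.86 over the processing alternatives. In DKSFM normalized coverage of *Lor* reached 3.98 ± 0.229, under that of *Ivl*.

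The genes of S100-fused proteins differed in whether they were covered at all. *Rptn*, which encodes the envelope protein repetin, was listed at 0 in the 3 KSFM-Ca2+ libraries and at 20.4, 25.8 and 19.1 in DKSFM. It was called higher (adjusted p = 2.7e-09), and no fold is given against a line listed at 0. *Tchh*, the gene of trichohyalin, a protein of the inner root sheath and of some surface epithelia, was listed at 1.8, 1.5 and 1.1 in KSFM-Ca2+ and at 9.8, 12.1 and 9.6 in DKSFM. The lines did not overlap, and the log2 fold change was 2.88 ± 0.11 (adjusted p = 7.3e-08), or 2.31 with a pseudocount of 1. *Hrnr*, the gene of hornerin, was listed at 0 in KSFM-Ca2+ and at 0.3, 0.4 and 0.2 in DKSFM, and *Crnn*, the gene of cornulin, at 0 and at 0.1, 0.5 and 0.1. Neither reached the filter. *Flg2* and *Tchhl1* were listed at 0 in all 6 libraries. For *Flg2*, with its long transcript, this is a listing under a step of about 16.4 reads.

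*Crct1*, a gene of a small cysteine-rich protein within the *Lce* cluster, showed the widest gap among members listed above 0 in both lines. It was listed at 0.1, 0.4 and 0 in KSFM-Ca2+ and at 54.5, 72.9 and 55.4 in DKSFM. The DKSFM libraries were far above the KSFM-Ca2+ libraries (log2 fold change 8.25 ± 0.50, adjusted p = 1.2e-06), but the fold rests on values at the step of 0.1 and ranged from 5.80 to 9.19 over the alternatives. *Kprp*, the keratinocyte proline-rich protein, was listed at 0 in KSFM-Ca2+ and at 1.1, 2.1 and 1.6 in DKSFM (adjusted p = 3.2e-06).

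The *Lce* genes, whose products join the envelope late, were near 0 in both lines. *Lce1g*, *Lce3c* and *Lce3f* were tested, and none of the 3 was called, with adjusted p-values of 0.811, 0.0355 and 0.0230 from limma, of which the last 2 had an unadjusted p under 0.05. *Lce3c* was listed at 0, 0.6 and 0.3 in KSFM-Ca2+ and at 0.5, 2.8 and 1.2 in DKSFM, and *Lce3f* at 0.2, 1.0 and 0.1 and at 2.3, 1.5 and 0.7. The lines overlapped for both. *Lce3f* was called higher without KSFM-Ca2+ replicate 2 (log2 fold change 2.68 in place of 1.94, adjusted p = 0.0013). With a replicate block *Lce3c* and *Lce3f* were both called higher (adjusted p = 0.00052 and 0.0095), as they were at an adjusted p of 0.05, although the replicate numbers did not pair the samples. The *Lce3* transcripts share sequence, with 26.5% of the windows of *Lce3c* and 44.6% of those of *Lce3f* found in other *Lce3* genes, so their values are uncertain. *Lce6a*, *Lce1h*, *Lce1j*, *Lce1l* and *Lce1m* were listed at 0 in every library. *Lce1a1*, *Lce1c*, *Lce1d*, *Lce1e*, *Lce1i*, *Lce1k*, *Lce3a*, *Lce3b* and *Lce3e* were listed at 0 in KSFM-Ca2+ and no higher than 0.6 in any DKSFM library, and *Lce1b*, *Lce1a2*, *Lce1f* and *Lce3d* at no more than 0.6 in either line. *Lce* genes listed above 0 numbered 3, 5 and 5 in the KSFM-Ca2+ libraries and 12, 10 and 7 in the DKSFM libraries.

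Ordered by normalized coverage per base, KSFM-Ca2+ was led by *Sprr2h* (80.5), *Sprr2j-ps* (63.1), *Sprr2a3* (44.7), *Ivl* (21.3) and *Sprr1b* (10.7). The libraries of each of these genes lay above those of the next. In DKSFM the order was *Sprr2a3* (179), *Sprr1a* (172), *Sprr1b* (90.8), *Crct1* (63.1) and *Sprr2j-ps* (28.3), followed by *Rptn* (22.5), *Sprr2g* (19.9), *Sprr2h* (19.4), *Ivl* (13.5) and *Tchh* (10.9). *Sprr2a3* and *Sprr1a* overlapped there, as did *Rptn*, *Sprr2g* and *Sprr2h*. *Sprr2h* thus went from the first to the eighth place and *Sprr1a* from the eighth to the second.

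Normalized coverage summed over the 47 members was 243, 244 and 248 in the KSFM-Ca2+ libraries and 595, 684 and 645 in the DKSFM libraries. The shares of single genes in this sum also differed. The 12 *Sprr2* genes held 84.1% ± 0.147 (SD, n = 3) of it in KSFM-Ca2+ and 39.8% ± 1.79 in DKSFM. Among them the 3 called higher held 20.9% ± 2.92 and 31.4% ± 2.07, and the 4 called lower held 61.2% ± 3.03 and 7.61% ± 0.375, both sets being chosen by their calls. *Sprr1a* held 1.32% ± 0.0593 and 26.8% ± 0.277. *Ivl* held 8.71% ± 0.0691 and 2.11% ± 0.133. The share of *Sprr* genes as a class was 89.8% ± 0.498 in KSFM-Ca2+ and 81.1% ± 1.36 in DKSFM, and that of the S100-fused class was 0.566% ± 0.0435 and 5.29% ± 0.464. *Lce* genes summed to 0.915, 2.78 and 1.54 in the KSFM-Ca2+ libraries and 5.08, 6.89 and 3.08 in the DKSFM libraries, with no overlap, while their share, 0.711% ± 0.390 and 0.779% ± 0.273, overlapped between the lines.

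**Figure D4:**
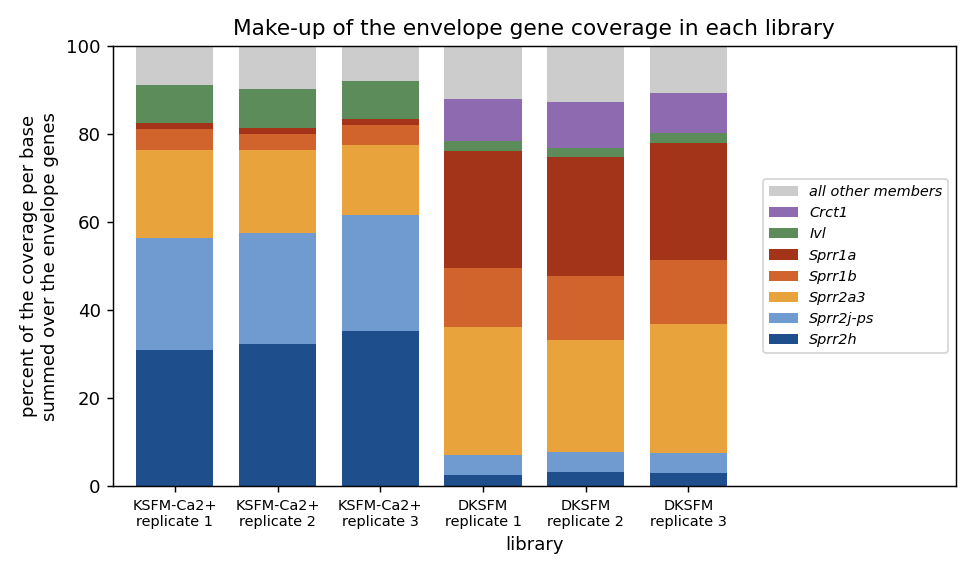
Percent of the normalized coverage per base summed over the 47 members that each of 7 genes held in each library, with all other members in grey. *Sprr2h* and *Sprr2j-ps* together fill 56.4%, 57.5% and 61.7% of the bars in KSFM-Ca2+ and 7.05%, 7.73% and 7.48% in DKSFM, where *Sprr1a*, *Sprr1b* and *Crct1* take their place.

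Envelope proteins from outside the complex and the enzymes that join them were read from a list of 32 genes. Of these 26 were tested, and 20 were higher and 2 lower in DKSFM, with a median log2 fold change of 2.28. For comparison, 13.1% of the 12409 genes tested were higher and 10.6% lower. Of the 26, 7 had passed the filter through DKSFM libraries alone, and all 7 were called higher. Requiring 0.5 in every library left 13 genes of the list higher and 2 lower. Among all genes filtered in that way the shares were 9.22% and 8.68%. The transglutaminase *Tgm5*, one of the 7 that had to differ, was listed at 0 in KSFM-Ca2+ and at 19.7, 20.6 and 23.1 in DKSFM (adjusted p = 2.2e-09). *Asprv1*, a protease of the upper epidermis, rose from 0.897 ± 0.163 to 229 ± 51.6, a log2 fold change of 7.83 ± 0.17 (adjusted p = 5.3e-09) that ranged from 6.90 to 8.11 over the alternatives. Among the most covered genes of the list, dermokine (*Dmkn*) rose from 481 ± 7.81 to 4286 ± 22.6, suprabasin (*Sbsn*) from 58.2 ± 3.55 to 794 ± 30.3 and the desmosomal plakophilin *Pkp1* from 554 ± 33.7 to 1156 ± 31.8. *Cstb*, a cysteine protease inhibitor, was at 545 ± 14.9 and 442 ± 14.7 and was not called. The 2 lower genes were *Abca12*, the lipid transporter of lamellar granules, at 19.99 ± 0.971 and 6.81 ± 0.498, and *Spink5*, a protease inhibitor, at 80.5 ± 3.07 and 30.4 ± 2.61. Both fell without overlap, by 1.54 and 1.40 on the log2 scale (adjusted p = 3.1e-07 and 2.3e-07).

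Of 36 transcription and chromatin factors known to act on the complex or on late differentiation 35 were tested. Of these 15 were higher and 2 lower, against 13.1% and 10.6% of all tested genes, with a median log2 fold change of 0.79. Only 1 of the 35, *Dlx3*, had passed the filter through DKSFM libraries alone and so had to differ. With 0.5 required in every library 14 were higher and 1 lower. *Cebpa* rose from 81.7 ± 5.21 to 509 ± 18.9 and *Hopx* from 74.1 ± 0.465 to 413 ± 23.0. The largest log2 fold changes in this direction were those of *Dlx3*, a homeobox factor near the step of 0.1 in KSFM-Ca2+ (0, 0.1 and 0.1 listed) and at 1.0, 1.1 and 1.1 in DKSFM, and of *Pou3f1*, a POU factor, at 1.66 ± 0.112 and 10.9 ± 0.303. With a pseudocount of 1 the log2 fold change of *Dlx3* went from 2.89 to 0.98 and its call was lost. The value of *Pou3f1*, 2.65 ± 0.09, was within its SE of that of *Cebpa*, 2.64 ± 0.05, and with a pseudocount of 1 it was 2.17, under *Cebpa* (2.63) and *Hopx* (2.46). The 2 lower factors were *Satb1*, a chromatin organizer reported to act on the complex, at 4.38 ± 0.626 and 0.345 ± 0.217, and *Fosl1*, an AP-1 subunit, at 17.1 ± 2.33 and 3.20 ± 0.740 (adjusted p = 5.1e-05 and 2.6e-06). The other *Fos* and *Jun* genes of the list did not all fall with *Fosl1*. *Jun*, at 18.2 ± 0.852 and 74.8 ± 3.75, and *Fosl2*, at 27.9 ± 0.807 and 100 ± 1.16, were called higher. *Fos*, *Junb* and *Jund* were called in neither direction. Each DKSFM library was above each KSFM-Ca2+ library for *Fos* and *Jund* (log2 fold changes 0.93 and 0.79) and below for *Junb* (-0.82). *Trp63* differed by a log2 fold change of 0.13, and for *Cebpb* the lines overlapped.

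**Figure D5:**
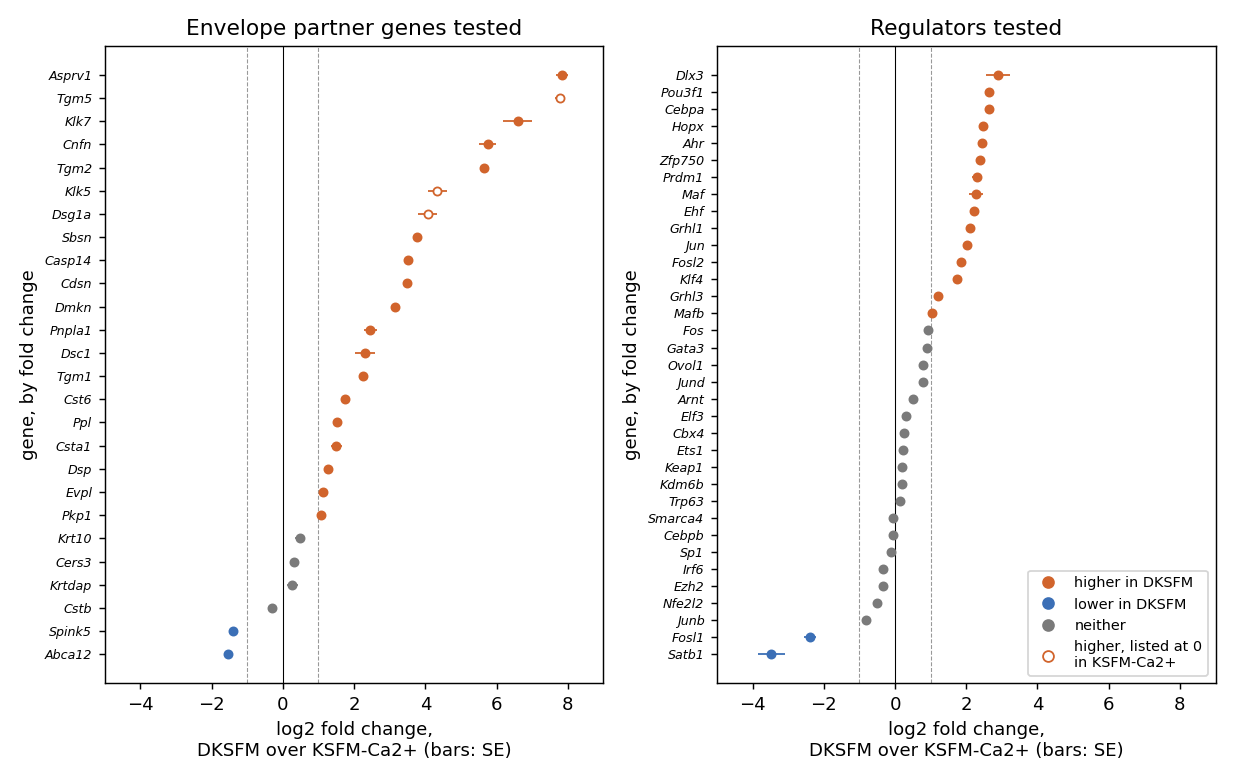
Log2 fold change (DKSFM over KSFM-Ca2+) with its SE for the tested genes of the list of envelope partner genes (left) and of regulators (right). Dashed lines mark a 2-fold change, and open circles mark genes listed at 0 in KSFM-Ca2+. Most partner genes lie to the right of the 2-fold line, while 18 of the 35 regulators were called in neither direction.

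Genes around the members did not all follow them. RefSeq places 22 further listed genes between the outermost members or within 1 Mb of them. Of the 22, 11 were tested, 4 were higher and 2 lower, and the median was 0.80. The shares called among the 12409 genes tested were 13.1% higher and 10.6% lower. Of these 11, 5 had passed the filter through DKSFM libraries alone, all 4 called higher among them, and *Tdrkh* through KSFM-Ca2+ libraries alone, so these had to differ. With 0.5 required in every library 0 were higher and 1 was lower. *S100a11* and *S100a10*, calcium-binding S100 genes just beyond the last member, were far more covered than any member. *S100a11* was at 2663 ± 92.5 and 4636 ± 145 and *S100a10* at 1886 ± 81.4 and 2486 ± 79.7, both under a 2-fold change. *Mrpl9*, a mitochondrial ribosomal protein, was at 61.3 ± 3.45 and 81.4 ± 0.911. *Them5* was among those called higher, at 0.215 ± 0.0906 and 7.28 ± 0.970. *Pglyrp3*, a peptidoglycan recognition protein next to *Lor*, fell from 40.8 ± 2.27 to 18.8 ± 0.580, and *Tdrkh* from 2.71 ± 0.212 to 0.0685 ± 0.0594.

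Markers of other cell types were read beside the members. The 5 fibroblast genes *Col1a1*, *Col1a2*, *Col3a1*, *Dcn* and *Lum*, the melanocyte genes *Dct* and *Tyr*, the endothelial genes *Cdh5* and *Tie1* and the T cell gene *Cd3e* were listed at 0 in every library. The 6 melanocyte genes summed to 4.12, 3.97 and 4.61 in KSFM-Ca2+ and 17.3, 18.7 and 18.3 in DKSFM, led by *Mitf* at 3.52 ± 0.415 and 17.7 ± 0.673. Of the others *Pmel* was at 0.595 ± 0.185 and 0.343 ± 0.145, with overlap, and *Tyrp1* and *Mlana* were near 0. Sums of the 4 endothelial genes were 2.67, 2.78 and 3.07 against 8.04, 8.18 and 7.10, led by *Pecam1*, and of the 5 immune genes 10.9, 11.2 and 12.6 against 13.5, 18.9 and 20.6, led by *Cd68*. For the 6 fibroblast genes the sums, all from *Pdgfra*, were 1.14, 0.893 and 1.30 against 2.33, 2.10 and 2.23. Keratins of simple epithelia differed in both directions. The 4 genes summed to 851, 882 and 993 in KSFM-Ca2+ and 408, 397 and 399 in DKSFM, where *Krt7*, the most abundant, went from 908 ± 75.1 to 311 ± 2.26 *Krt8* from 0.0902 ± 0.0800 to 67.7 ± 2.83, *Krt18* from 0.0254 ± 0.0440 to 21.2 ± 1.84 and *Krt19* from 0.225 ± 0.202 to 1.59 ± 0.313. The part of these keratins in the differences of the envelope genes was not tested. The inner root sheath keratins *Krt25*, *Krt27* and *Krt28* were listed at 0 in every library, and the 5 genes of that list summed to at most 0.212 in any library, beside the rise of *Tchh*.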

How the data were processed

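RNA of the cultured cells was sequenced by the authors from 6 directional poly(A) libraries, with single reads of 85 bases. STAR was used for alignment to mm10 with RefSeq annotation, Salmon for quantification and DESeq2 for the study's own comparison, and the submitters' processing notes also name bcl2fastq. The deposited signal is the average number of reads over each base of a gene, given to 1 decimal and without scaling for library size, and how it was computed from the alignments is not given in the sources used here. The unit of the files is coverage and not counts, so no count model was run.

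Libraries were scaled by trimmed means of M values without weights (30% of M values and 5% of A values trimmed), with factors of 0.990 to 1.013. A gene entered the test when 3 or more libraries had a normalized coverage of 0.5 or above. After the transformation log2(normalized coverage + 0.1), limma 3.58.1 in R 4.3.3 was fitted with an intensity trend to all 6 libraries, with line as the only term. Benjamini-Hochberg adjustment covered all 12409 genes tested, and a call needed an adjusted p under 0.01 and a 2-fold change. Fold changes are on the log2(value + 0.1) scale, which understates the change of low genes. No 2 libraries were identical. Values near the step of 0.1 are imprecise, and coverage gives no counting interval.

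Members and gene lists were chosen with earlier results of these data known. Listed coverage in each library was given for *Ivl*, *Lor*, members with a mean normalized coverage of 10 or more in either line and members called against the majority direction, and ranges or counts for the rest. Of each further list, the 4 genes with the highest coverage and the 2 with the largest called change in each direction were named. *Krt14*, *Krt1*, *Krt10*, the other cell type markers, the other *Fos* and *Jun* genes, and the low members with values in single libraries were added to these.

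Of the listed genes 24417 matched RefSeq (GRCm38.p6) by symbol, all 47 members among them. Promoters came from RefSeq, motifs were searched on both strands, and windows were aligned with Biopython 1.88 (match 1, mismatch -1, gap opening -3, gap extension -1). Windows of 85 bases were compared between all transcripts of GENCODE M21 on the transcript strand. Python 3.11.15 and matplotlib 3.10.9 were used. Results were recomputed with size factors from relative log expression or with library totals in place of the scaling, without the filter or with 0.5 required in every library, with pseudocounts of 0.5 or 1, without the trend, at an adjusted p of 0.05, with a replicate block, with each library left out, with only those libraries whose file name holds the word combined, and with members of the same listing counted once. The qPCR, protein and culture experiments of the study were not analysed here.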

Additional observations from a re-analysis of the deposited data

How the results depend on the processing

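Under 17 alternatives, 709 of 724 recomputed values kept their direction and their side of the threshold or, for counts, stayed within 1.5 times. Requiring a normalized coverage of 0.5 in every library, which tests fewer genes, left 6 members higher in DKSFM, 1025 of all genes higher, 13 partner genes higher, 1 regulator lower, 0 neighbouring genes higher and 1 lower. Those 0 neighbouring genes follow from the filter, since the 4 called had all passed through DKSFM libraries alone. With the libraries named as combined alone (KSFM-Ca2+ replicate 3, assumed to vary like the DKSFM libraries, against all DKSFM replicates), 1 regulator and 1 neighbouring gene were lower. The log2 fold change of *Cebpb*, which was not called, turned from -0.070 to 0.072 in that comparison and ranged from -0.13 to 0.00043 with single libraries left out, and the cause was not tested. The call of *Sprr2e* was lost without any 1 KSFM-Ca2+ library and without the trend, with its log2 fold change between -2.60 and -2.49. The calls of *Sprr2b* and *Dlx3* were lost with a pseudocount of 1. *Lce3f* was called higher without KSFM-Ca2+ replicate 2 and with the libraries named as combined, and *Sprr2d* lower without KSFM-Ca2+ replicate 3 or DKSFM replicate 1. *Lce3c* and *Lce3f* were called with a replicate block and at an adjusted p of 0.05. The replicate numbers shared by the labels did not pair the samples: deviations of libraries with the same number correlated at -0.005, 0.024 and -0.006. With a replicate block 13 members were higher and 4 lower, against 11 and 4, and over all genes 1636 were higher and 1316 lower. The other scalings moved the median of all genes to 0.01 and -0.01. The step of 0.1 limits values of the *Lce* genes and of *Lor* and *Crct1* in KSFM-Ca2+.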

Other observations

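Genes that lie between the members but do not belong to the envelope rule had low coverage. *Prr9*, between *Lor* and the *Sprr2* genes, was listed at 0, 0.2 and 0.1 in KSFM-Ca2+ and at 0.9, 1.9 and 0.9 in DKSFM, and was called higher (adjusted p = 0.00053 from limma). *2310050C09Rik* was listed at 0.2, 0.4 and 0 and at 0.5, 0.6 and 0.8 and was not called. *Smcp*, a gene of the sperm mitochondrial capsule next to *Ivl*, was listed at 0.4, 0.1 and 0.5 in KSFM-Ca2+ and at 0.2, 0.1 and 0 in DKSFM, and *Lelp1* at no more than 0.2 in any library. These 4 genes were chosen for their position, after their values had been seen.

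Transglutaminase genes other than *Tgm5* differed in level. *Tgm2*, the tissue transglutaminase, was listed at 2.1, 1.5 and 1.4 in KSFM-Ca2+ and at 81.8, 83.1 and 80.1 in DKSFM, a 50.6-fold change (adjusted p = 2.1e-10 from limma). *Tgm1*, the main keratinocyte enzyme, went from 4.82 ± 0.613 to 23.4 ± 3.42 (SD, n = 3), and *Tgm3* was listed at no more than 0.1 in any library. These genes were picked after their values had been seen.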
